A study of Drosophila melanogaster with 4 samples.

Results

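The regions described here are 1367 ASH1 peaks of S2-DRSC cells that had no FSH peak in their neighbourhood. They were chosen by position only: a member shared 0 bp with every FSH peak, and more than 1000 bp lay between its edge and the edge of the nearest FSH peak on the same chromosome. Members made up 13.1% of the 10405 ASH1 peaks on the arms X, 2L, 2R, 3L and 3R and on chromosome 4 (Wilson 95% interval 12.5% to 13.8%, counting error only), and the whole list contained 10748 ASH1 peaks. This share is fixed by the rule and is given as a description. They are called remote ASH1-only peaks below. Another 516 ASH1 peaks had no overlap with FSH but lay within 1000 bp of an FSH peak and are called flanking, and 8522 ASH1 peaks were shared with FSH.

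S2-DRSC is a cultured Drosophila cell line of embryonic origin. Untreated cells were used, and cross-linked chromatin from a single batch was precipitated with 2 antibodies against ASH1, labelled ASH1N and ASH1C, and with 2 antibody preparations against FSH, labelled FSH-S and FSH-S+L. The label FSH-S differs from the protocol in the same record, which describes one FSH antibody as specific for the long isoform FSH-L and the other as reactive to both. Alignments of the antibodies to the same protein were combined before peak calling, so there is 1 list per protein, no spread between replicates and no test of a difference between samples. The lists contain no read counts, and reads and coverage profiles were not analysed here, so the depth under a given peak is not given. All statements on remote ASH1-only peaks below are therefore descriptions of these lists. Intervals treat peaks as independent, which neighbouring peaks are not.

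ASH1 is a histone methyltransferase of the Trithorax group, the set of proteins that keep genes in an active state. The group was found through its role in the expression of homeotic genes. FSH is the BET family protein of Drosophila. Its tandem bromodomains bind acetylated histone tails. The lack of an FSH call means that the enrichment did not pass the threshold of the peak caller, and not that FSH was absent.

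Remote ASH1-only peaks were weak. Their ASH1 scores, which rise with the significance of the enrichment over input and start at 50.02, had a median of 159 (order-statistic 95% interval 147 to 171, n = 1367) and quartiles of 85.5 and 355. Flanking ASH1-only peaks were similarly weak, with a median of 134 (interval 123 to 144, n = 516). Shared ASH1 peaks had a median of 1171 (interval 1130 to 1218, n = 8522). Thus the interval of the remote peaks lay above that of the flanking peaks and far below that of the shared peaks. A score under 100 was found for 428 of the 1367 remote peaks or 31.3%, compared to 10.7% of all ASH1 peaks. A score of 1000 or more was reached by 114 remote peaks or 8.34%, compared to 46.2% of all ASH1 peaks. At the upper end, 10 remote peaks or 0.732% had a score of 3100, a value at which many peaks of the list are tied, compared to 19.3% of all ASH1 peaks with 3100 or more.

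Accordingly, the chance that an ASH1 peak was remote from FSH fell with its score in every step. Of the ASH1 peaks scoring from 50 to below 100, 38.6% were remote ASH1-only peaks (Wilson interval 35.8% to 41.5%, n = 1109). The share was 31.9% from 100 to below 200, 18.7% from 200 to below 500 and 8.18% from 500 to below 1000. It was 3.72% from 1000 to below 3100 (interval 3.08% to 4.48%, n = 2799). At 3100 and above it was 0.497% (interval 0.270% to 0.913%, n = 2011). The intervals of neighbouring classes did not overlap, but they cover counting error only and treat peaks as independent. Shared peaks were also longer at higher scores, with medians of 541 bp in the lowest and 1297 bp in the highest class. Longer ASH1 peaks are more likely to reach an FSH peak, so the decline is not fully independent of the rule.

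**Figure D1:**
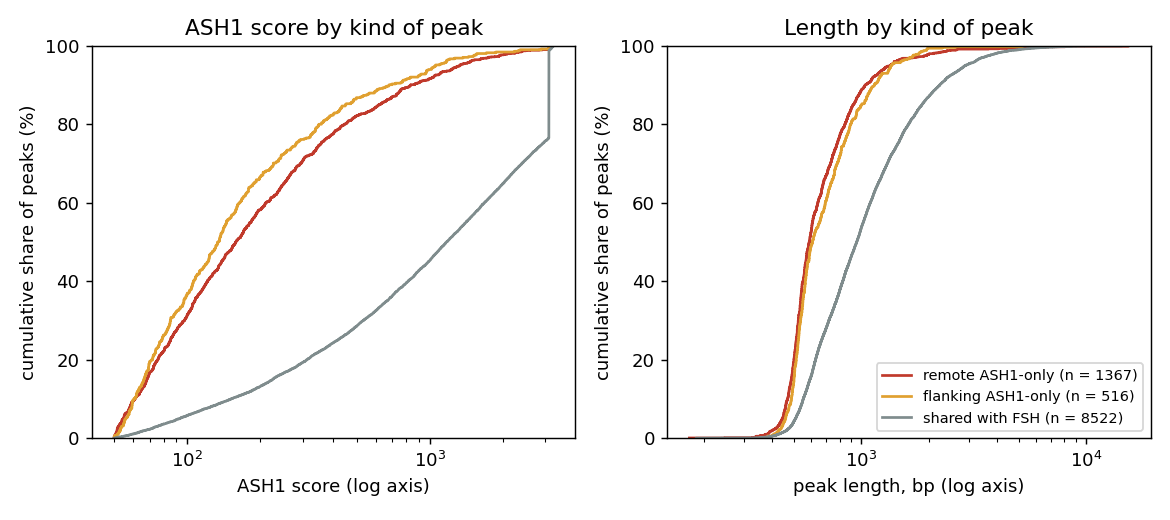
Cumulative share of ASH1 peaks (vertical axis, %) by ASH1 score (left, log axis) and by length in bp (right, log axis), with a line for remote ASH1-only, flanking ASH1-only and shared peaks. The remote peaks (median score 159, median length 586 bp) follow the flanking peaks closely and lie to the left of the shared peaks (1171 and 954 bp), and the vertical step of the shared peaks stands at the tied score of 3100.

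Remote ASH1-only peaks were also short. Their median length was 586 bp (interval 573 to 598 bp) with quartiles of 514 and 780 bp, compared to 606 bp for flanking and 954 bp for shared ASH1 peaks. Since longer ASH1 peaks are more likely to reach an FSH peak, length is not fully independent of the rule. The difference from shared peaks was also present within score classes, although scores can still differ inside a class. From 200 to below 500 the median was 667 bp for remote and 778 bp for shared peaks, and from 1000 to below 3100 it was 713 bp and 1069 bp. In the lowest class, from 50 to below 100, the medians of 516 bp and 541 bp were close to each other. Together, the remote peaks covered 1.01 Mb, which is 8.51% of the length of all ASH1 peaks on these chromosomes, although they were 13.1% of the peaks.

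A small number of remote ASH1-only peaks departed from this picture by their length. Peaks of at least 2000 bp were 28 of the 1367 members or 2.05%, compared to 10.8% of all ASH1 peaks. They accounted for 11.1% of the length covered by all members. At least 5000 bp were reached by 8 members or 0.585%, close to the 0.894% of all ASH1 peaks. The long members did not have to be strong: their scores ranged from 58.2 to 3100 with a median of 608, and 15 of the 28 scored below 1000. In the class at 3100 and above the order of lengths was turned around. Here 7 of 10 remote peaks were at least 2000 bp long, compared to 24.7% of the 1997 shared peaks, and the median was 2246 bp for remote and 1297 bp for shared peaks. This comparison rests on 10 remote peaks.

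**Figure D2:**
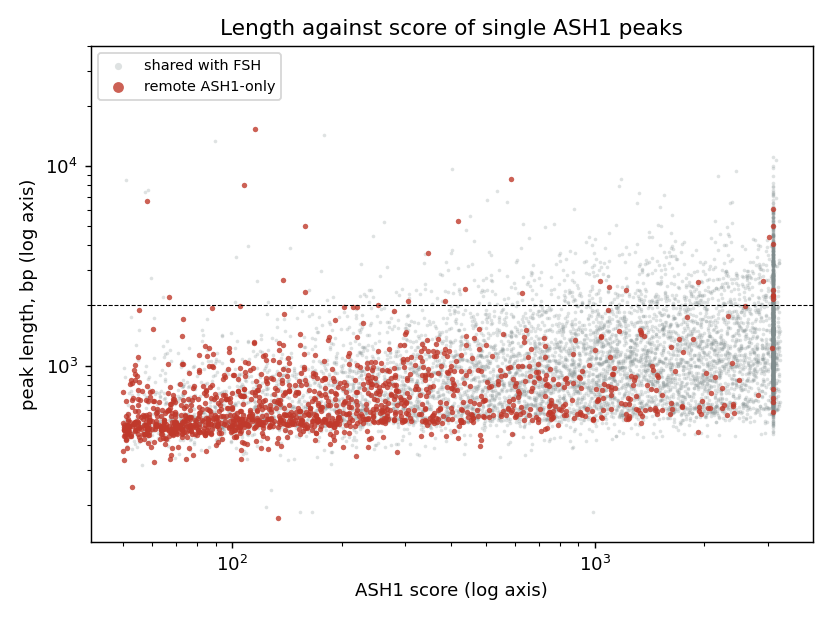
Length in bp (vertical, log axis) against ASH1 score (horizontal, log axis) of each remote ASH1-only peak (red) and each shared ASH1 peak (grey), with a dashed line at 2000 bp. Most remote peaks lie at low scores around the median length of 586 bp, while 28 lie on or above the dashed line, the longest at 15420 bp with a score of 115.

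The 28 members of at least 2000 bp lay in 19 different stretches between neighbouring FSH peaks. Of the 5 longest, 3 lay between the same pair of FSH peaks on arm 3L. Positions are given in BDGP Release 5, the genome version of the lists. This stretch of 95.04 kb without FSH (chr3L:3375247-3470285) held 3 ASH1 peaks, all of them members, which covered 32.0 kb or 33.7% of it. The longest of all members, with 15420 bp, was chr3L:3443340-3458759 and had a score of 115. Only 732 bp beyond it followed the second longest, chr3L:3459492-3468063, with 8572 bp and a score of 586. The third, chr3L:3384047-3392094, had 8048 bp and a score of 108 and lay near the other end of the stretch. These are long regions with modest scores, in contrast to the strong members described next. FSH returned 2222 bp beyond the second of these peaks, at an FSH peak that was shared with ASH1.

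The fourth longest member, chr3R:25627698-25634399, was 6702 bp long and had a score of 58.2, just above the threshold of the list. It lay 48.0 kb from the nearest FSH peak. The same stretch of 129.5 kb without FSH contained the member chr3R:25658040-25662117, which was 4078 bp long and had a score of 3100. A weak and a strong long peak were thus found in the same stretch, 23640 bp apart. The other member of this stretch, chr3R:25582071-25584167, was 2097 bp long and had a score of 386.

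The fifth longest member was also among the 10 members tied at the highest score. This peak, chr3R:16134310-16140404, was 6095 bp long with a score of 3100 and lay 12.7 kb from the nearest FSH peak. Separated from it by 70 bp was another member, chr3R:16140475-16145775, with 5301 bp and a score of 419. Hence a nearly continuous ASH1 region of 11466 bp was present without an FSH call. On the X chromosome, the members chr X from 12643629 to 12648658 (5030 bp) and from 12648768 to 12650995 (2228 bp) were 109 bp apart and both had a score of 3100. They lay in a stretch of 49.1 kb without FSH, together with a further strong member from 12609534 to 12611532 with a score of 2587. All 3 ASH1 peaks of that stretch were members.

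**Figure D3:**
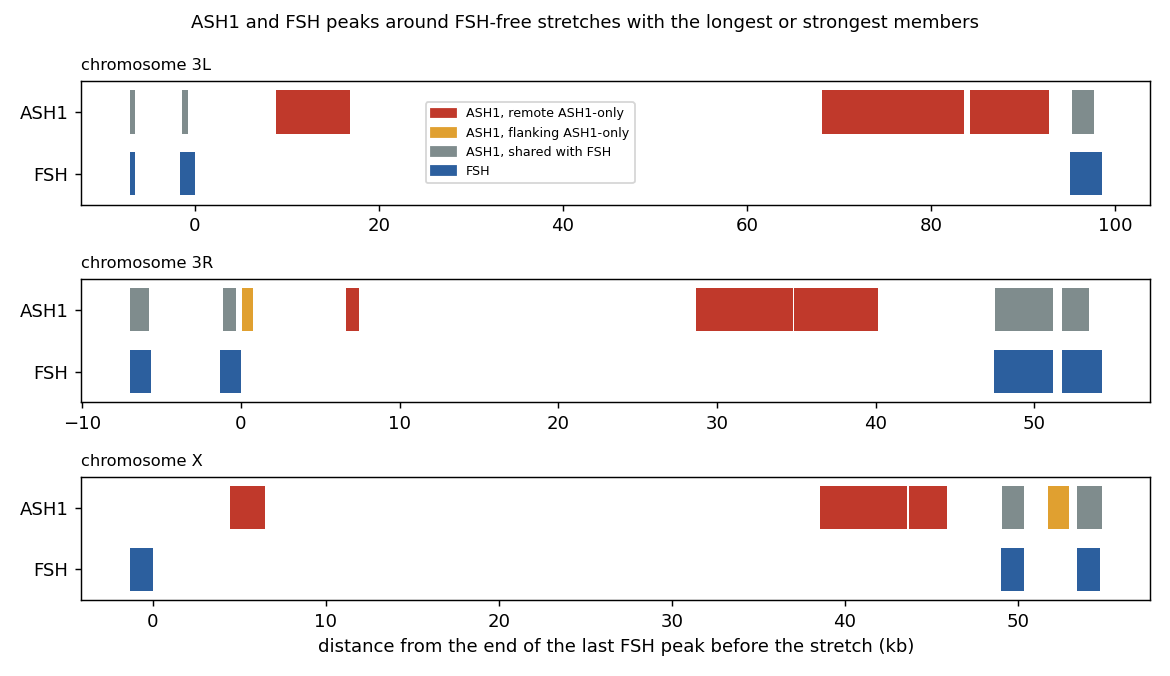
Peaks of ASH1 (upper row of each panel) and FSH (lower row) around 3 stretches without FSH, on 3L (95.04 kb), 3R (47.4 kb) and X (49.1 kb), plotted as distance in kb from the end of the last FSH peak before each stretch. Red blocks are remote ASH1-only peaks, orange flanking and grey shared ASH1 peaks, and blue blocks FSH peaks. The members 70 bp apart on 3R and 109 bp apart on X are separated by thin white lines.

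Of the remaining members with a score of 3100, a pair lay on 3R in one stretch of 40.2 kb without FSH. The first, chr3R:19172654-19175053, was 2400 bp long and 8.99 kb from FSH, and the second, chr3R:19180724-19182878, was 2155 bp long and 1.16 kb from FSH. On 2L, the peak chr2L:8956297-8958559 with 2263 bp lay 3.07 kb from FSH. The last 3 were narrow. They were chr3R:23064464-23065228 with 765 bp, chr3R:27038779-27039464 with 686 bp and chr3L:15491691-15492344 with 654 bp, at distances of 4.11, 1.87 and 1.36 kb from FSH. The strongest members thus comprised 7 peaks of 2155 bp or more and 3 peaks near the common length. Of these 10, 6 lay on 3R, which held 324 of all 1367 members.

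The distance from FSH is part of the rule and is described without a test. The median gap between a remote ASH1-only peak and the nearest FSH peak was 4328 bp (quartiles 2198 and 9365 bp), and the largest was 87535 bp. Gaps of up to 2 kb were found for 286 members or 20.9%, whereas 104 members lay 20 to 50 kb and 22 members more than 50 kb from FSH. Close to the limit, the members just inside had gaps of 1003, 1006 and 1007 bp and scores of 83.4, 57.6 and 1014, and the ASH1-only peaks just outside had gaps of 998, 1000 and 1000 bp and scores of 273, 326 and 54.9. Low scores were thus found on either side of the limit, and the only score above 1000 was that of a member.

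Remote ASH1-only peaks became rarer with distance from FSH. When midpoints were counted per Mb of sequence at the same distance, the density was 26.6 members per Mb from 2 to 5 kb from the nearest FSH peak. It was 16.5 per Mb from 5 to 10 kb, 10.1 per Mb from 10 to 20 kb and 5.52 per Mb from 20 to 50 kb. Beyond 50 kb, 23 members in 6.81 Mb gave 3.38 per Mb. The density thus declined in every step, even though all members lay outside the immediate neighbourhood of FSH. The scores declined as well but less regularly, from a median of 214 for gaps of 1 to 2 kb to 162 for 2 to 5 kb, 142 for 5 to 10 kb, 133 for 10 to 20 kb, 156 for 20 to 50 kb and 100 for the 22 members beyond 50 kb.

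**Figure D4:**
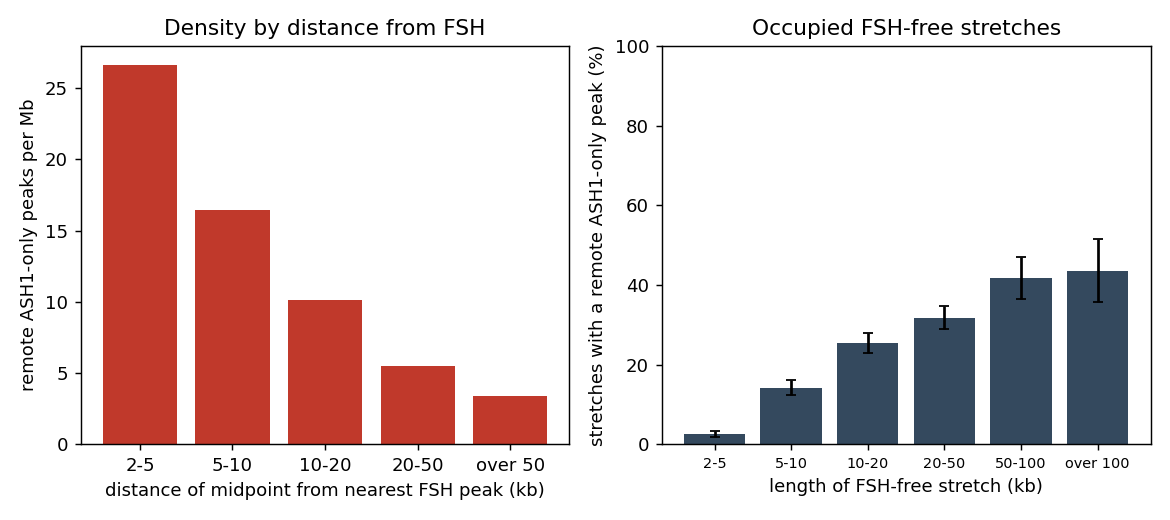
Left, remote ASH1-only peaks per Mb of sequence (vertical axis) by distance of the peak midpoint from the nearest FSH peak in kb; right, share of FSH-free stretches with at least 1 remote ASH1-only peak (vertical axis, %, with Wilson 95% intervals) by length of the stretch in kb. The density falls from 26.6 to 3.38 per Mb. The share of occupied stretches rises from 2.55% to 43.4%, where longer stretches also have more room for a member.

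The 5 members farthest from FSH were short and, with 2 exceptions, close to the threshold of the list. The most remote, chr3R:23264141-23264542, was 402 bp long with a score of 185. The members chr3L:17147384-17147973, chr3R:10811683-10812313 and chr3L:13111851-13112520, with gaps of 83.4, 81.3 and 70.5 kb, had scores of 55.0, 72.0 and 52.8. The fifth, chr2L:15348083-15348607, had a gap of 72.7 kb and a score of 176. Of these, only the peak on 2L had another ASH1 peak within 10 kb, whereas the others were isolated by 70.5 kb or more from every other ASH1 peak.

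The FSH peaks next to the members were ordinary members of their list. Their median score was 612, with 1 entry for each remote ASH1-only peak, compared to 715 for all 8438 FSH peaks on these chromosomes, and their median length of 994 bp compared to 1019 bp. Of these entries, 93.2% were FSH peaks that overlapped an ASH1 peak, and the same share of 93.2% was found for all FSH peaks. The reverse arrangement was less frequent. Only 378 of the 8438 FSH peaks lay without overlap and more than 1000 bp from the nearest ASH1 peak, compared to 1367 of the 10405 ASH1 peaks. Both numbers depend on how many peaks each list holds. With FSH scores of at least 100, 17.9% of the ASH1 peaks were remote. The remote FSH-only peaks were weak too, with a median score of 175 (interval 147 to 208). They resembled the remote ASH1-only peaks in length, with a median of 593 bp (interval 583 to 608 bp). At least 2000 bp were reached by 11 of the 378, compared to 28 of the 1367 remote ASH1-only peaks.

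Most remote ASH1-only peaks had no close ASH1 neighbour. Another ASH1 peak within 1000 bp was found for 168 members or 12.3% (interval 10.7% to 14.1%), compared to 43.5% of all ASH1 peaks. When members were instead defined by a gap to FSH of more than 500 bp, the share with an ASH1 peak within 1000 bp was 22.2%. With the distance to FSH measured between midpoints, it was 31.4%. The rule keeps shared ASH1 peaks away from members, since the FSH peak of a shared site has to be more than 1000 bp away, so this share is not independent of the rule. In 123 of the 168 cases the nearest ASH1 peak was itself a member. When ASH1 peaks with gaps of up to 1000 bp were counted as one group, 1199 members formed a group of their own, 121 members were found in 58 groups made only of members, and 47 members belonged to groups with other ASH1 peaks. The group with most members contained 4 of them (chrX:12540988-12545225) with scores between 102 and 1129.

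Over longer distances, the position of members relative to shared sites was compared to that of all 95.01 Mb more than 1000 bp away from FSH. A shared ASH1 peak was located within 5 kb of 721 members or 52.7%, compared to 29.8% of this sequence. Within 10 kb the values were 1032 members or 75.5%, compared to 49.5%. Within 50 kb they were 1344 members or 98.3%, compared to 91.7%, so that nearly any position would qualify at that distance. Shared ASH1 peaks overlap FSH by definition, so these values are not independent of the decline with distance from FSH. Members were measured from their edges and the sequence base by base, which favours the members. The nearest ASH1 peak was a shared peak for 907 members or 66.3%, compared to 83.3% of all ASH1 peaks, and a remote ASH1-only peak for 399 members or 29.2%, compared to 10.6%. As stated above, the rule itself keeps shared peaks away from members, which bears on this comparison. A minority was isolated, with no other ASH1 peak within 10 kb. This was the case for 219 members or 16.0% (interval 14.2% to 18.1%), compared to 8.6% of all ASH1 peaks and 7.91% of the shared ones.

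The 1367 members were distributed over 1039 of the 8439 stretches between neighbouring FSH peaks or chromosome ends. The total includes stretches of less than 2 kb, in which the rule permits no member between 2 FSH peaks. A single member was found in 794 of these stretches, and 245 stretches with 2 or more members contained 41.9% of all members. Longer stretches were occupied more often, which is in part given by their greater room for a member. A member was present in 2.55% of the 1807 stretches of 2 to 5 kb, where the rule leaves little room, in 25.4% of those of 10 to 20 kb and in 43.4% of the 145 stretches of 100 kb or more (interval 35.7% to 51.6%). Even in the latter class, 63 stretches held a member and the others none.

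The stretch with most members was chr3R:15736970-15822657, in which 6 short ASH1 peaks of 512 to 764 bp were spread over 85.7 kb with scores between 87.4 and 266. Another 4 stretches contained 5 members each. The longest of them, chr2L:15275422-15498641 with 223.2 kb, held members with scores from 69.7 to 1167. In chr3R:25733884-25822803 (88.9 kb) the scores ranged from 119 to 1089, and in chrX:12528505-12547502, a stretch of only 19.0 kb, from 102 to 1129. The members of chrX:245491-386570 (141.1 kb) were narrow and weak, with lengths of 341 to 495 bp and scores of 66.7 to 239. Stretches with several members therefore included both series of weak peaks and mixtures of weak and strong ones.

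Across the chromosomes, the share of ASH1 peaks that were members was highest on X, although 3R held more of them, with 324 members. On X, 308 of 1889 ASH1 peaks or 16.3% were remote from FSH (Wilson interval 14.7% to 18.0%), compared to 13.7% on 3R, 13.1% on 2L, 12.0% on 3L and 11.1% on 2R (interval 9.80% to 12.5%). The interval of X was separate from those of 2R and 3L and overlapped those of 2L, by a narrow margin, and 3R. On chromosome 4, 7 of 116 ASH1 peaks or 6.03% were members, with a wide interval from 2.95% to 11.9%. Per Mb of sequence more than 1000 bp away from FSH, the order was similar at the ends, with 16.8 members on X, 14.8 on 3R, 14.1 on 2L, 13.9 on 2R, 12.8 on 3L and 6.57 on chromosome 4. X thus ranked first both in the share of its ASH1 peaks and in members per Mb, but not in their number. FSH peaks on X were also weaker and shorter than on the autosomal arms. Their median score was 557 on X, compared to 717 to 849. Their median length was 831 bp, compared to 990.5 to 1115 bp. Whether this bears on the share of members on X was not tested.

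**Figure D5:**
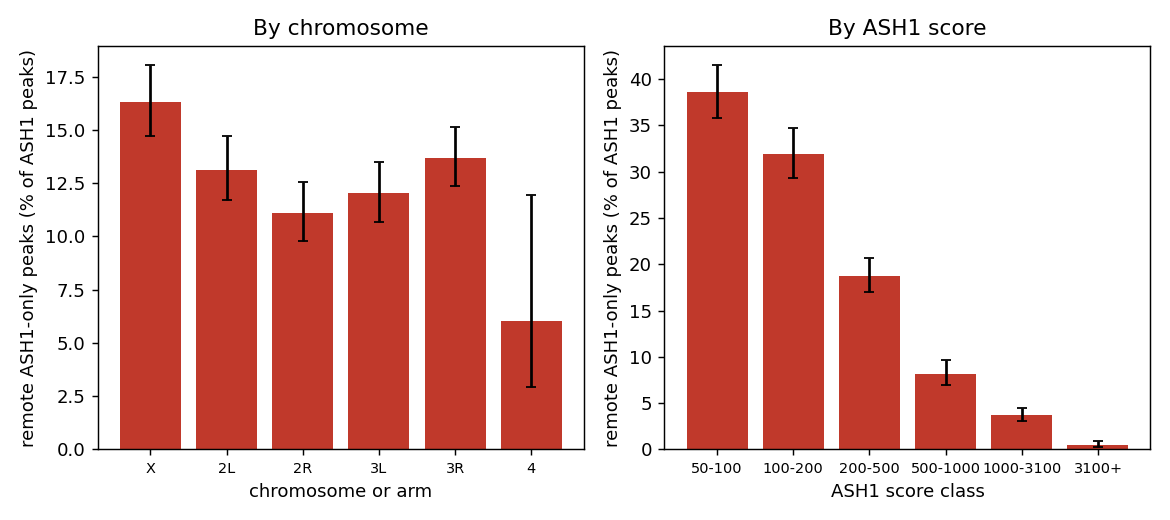
Remote ASH1-only peaks as a share of all ASH1 peaks (vertical axes, %), with Wilson 95% intervals as error bars, by chromosome or arm (left) and by ASH1 score class (right). X has the highest share with 16.3% and chromosome 4 the lowest with 6.03%, and the share falls from 38.6% in the lowest to 0.497% in the highest score class.

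Members on X were shorter than on the 4 autosomal arms, with a median of 518 bp compared to 588 to 655 bp. Shared ASH1 peaks on X were shorter than on these arms too, with 751 bp compared to 943 to 1044 bp. The median score of members on X was 155 and lay within the range of the autosomal arms, above 144 on 2L and below 162 on 3L, 167 on 2R and 173 on 3R. Shared ASH1 peaks, in contrast, had a lower median score on X than on any autosomal arm, with 728 compared to 1149 to 1359 on the autosomal arms. The members of chromosome 4 were the weakest and shortest, with medians of 79.2 and 475 bp over 7 peaks. Of the 28 members of at least 2000 bp, 11 were located on 3R, 7 on 3L, 5 on 2R, 3 on 2L and 2 on X.

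In windows of 1 Mb, the number of members had a median of 11 and ranged from 0 to 23 over 123 windows. The window with most members was the first Mb of X, the end of the chromosome, in which 23 of 42 ASH1 peaks or 54.8% were remote from FSH, and which held 27 FSH peaks. These 23 members were weak, with a median score of 110. In the typical window, 12.5% of the ASH1 peaks were members. Without this window, the share on X was 15.4% (interval 13.9% to 17.1%), so the interval overlapped those of 2L and 3R and was separate from those of 3L and 2R, as before. Leaving it out was chosen after seeing the data. The next windows were X from 11 to 12 Mb with 21 of 112 ASH1 peaks, and then 3 windows with 19 members each, X from 12 to 13 Mb and from 15 to 16 Mb and 2R from 3 to 4 Mb. The window of X from 12 to 13 Mb contained the strong long members and the group of 4 described above, and its members had a median score of 268.

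Members could be placed relative to a gene in a single case, in the region around Dad, which encodes an inhibitory Smad protein of the Dpp signalling pathway. Its place on 3R was taken from the study's browser view of the gene, and the peaks between the axis marks of that view were counted, so the ends of the gene itself were not used. Of the 8 ASH1 peaks in this window, 6 were shared with FSH and 2 were members. The members chr3R:12884558-12885269 and chr3R:12885349-12886030 had scores of 95.3 and 55.0, whereas the 6 shared peaks scored from 399 to 1866. They were 79 bp apart, and their gaps to FSH of 1114 and 1767 bp were short compared to the median of all members. Both lay between FSH peaks with scores of 1603 and 2079, within an otherwise shared series of peaks. Other regions are given by position only, since gene models on the same genome version were not analysed here.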

How the data were processed

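ChIP-seq reads of 36 bp from 4 libraries were aligned by the authors to BDGP Release 5 with Bowtie 0.12.7, merged per protein with SAMtools 0.1.9 and called against input with MACS 1.4.0 (P value limit 1e-05). Each deposited list gives the start, end and score of each peak. The files do not name the deposited score. It was taken for log10 of P multiplied by -10, since the lowest score is slightly over 50. Starts were converted to 1-based positions. Peaks on mitochondrial, unplaced and heterochromatic sequences were left out. A gap is the number of bases between edges, and 2 flanking peaks had exactly 1000 bp. Chromosomes were taken to end at their last peak. Calculations were done with scipy 1.17.1, pandas 2.3.3 and numpy 2.4.6 in Python 3.11.15, and plots with matplotlib 3.10.9. BEDTools 2.31.1 gave the same 1367 members, and the rule classified 1000 of 1000 simulated peaks correctly. Named regions were the 10 members with the highest score, the 5 longest, the 5 farthest from FSH, those of the 5 stretches with most members, 3 peaks on each side of the limit, the first 3 windows (with ties) and the members around Dad, where the window was set from the study's browser view. Members and lists were chosen with earlier results of these data known. Pooling permits no test between samples. Alternatives changed the limit, the score thresholds, the joining of peaks, the distance measure and the sequences. Genes, other than Dad, and DNA sequences were not analysed here.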

Additional observations from a re-analysis of the deposited data

Results flagged for a closer look

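On the heterochromatic, unplaced and mitochondrial sequences, which were left out of all comparisons, the same rule found 46 remote ASH1-only peaks among 343 ASH1 peaks. They are listed because these sequences lie outside the report. The share of 13.4% (Wilson 95% interval 10.2% to 17.4%) was close to the 13.1% on the main chromosomes, so the count does not stand out. They had a median score of 117 and a median length of 502 bp, and the highest score was 864.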

How the results depend on the processing

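No paired analysis was possible because both antibodies of a protein were pooled into 1 list, and for the same reason no replicate could be left out. Of 60 alternative values, 34 moved by less than the interval of the value reported or, for counts, by less than 1.5 times. With a limit of 500 bp, members were 15.1% of the ASH1 peaks, their median gap was 3562 bp and 22.2% had an ASH1 neighbour within 1 kb. With 2000 bp, these values were 10.4%, 5712 bp and 9.81%. With 5000 bp, 603 members remained, or 5.80%, with a median score of 142, a median length of 560 bp, a median gap of 10210 bp and 8.29% with a neighbour. With ASH1 scores of at least 100, the share was 10.1%, the median score 256 and the median length 632 bp. With FSH scores of at least 100, the share was 17.9%, the median score 190, the median length 599 bp and the share with a neighbour 14.99%. With both thresholds, the share was 14.6%, the median score 291 and the median length 643.5 bp. Joining ASH1 peaks over gaps of up to 1000 bp gave a share of 16.3%, and has no value for neighbours by construction. Applying the limit to the distance between midpoints gave 17.1%, a median gap, still between edges, of 2837.5 bp and 31.4% with a neighbour. Leaving out chromosome 4, adding the other sequences, or leaving out the first Mb of X (share 13.0%, chosen after seeing the data) moved none of the values computed. The number of members changed by more than 1.5 times only with the limit of 5000 bp. It was 939 with the ASH1 threshold and 1861 with the FSH threshold. Reads and coverage profiles were not analysed here, so weak calls were not weighed by depth.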
